A study of Mus musculus with 28 samples.

Results

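K36M cells at day 4 of reprogramming (K36M d4) were set against WT cells at day 8 (WT d8), the intermediate WT day whose expression lay nearest to them, to compare the route of the K36M cells with that of WT cells after pluripotency genes had come on. These groups are 4 of the 28 poly(A) RNA-seq libraries of the series, 2 of K36M d4 and 2 of WT d8, and all 37620 listed genes were considered. In K36M, methionine takes the place of lysine in the H3 tail. Mouse embryonic fibroblasts (MEFs) of both genotypes, WT and K36M, were reprogrammed with OKSM (Oct4, Klf4, Sox2 and Myc) and sequenced at 5 time points from d0 to d8, besides passaged induced pluripotent stem cells (iPSCs) and MEFs without OKSM. Both groups compared are reprogramming intermediates labelled with the same tissue of origin, the same OKSM factors and the same medium, named AGi, and neither group carries an agent label. They differ in genotype and in days of reprogramming, so those effects cannot be told apart in this comparison. Library names give H3.3 for WT and K36M for the mutant, and no label gives the promoter, the line, the clone or the age of the embryos. Whether the 2 replicates of a group came from separate cultures is not in the labels, so the p-values cover a spread between libraries that may be technical.

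Reprogramming takes fibroblasts through a loss of mesenchymal identity and a gain of epithelial adhesion, after which the pluripotency network is switched on in stages, with early general factors such as Sall4 and Lin28a and late naive factors such as Esrrb and Dppa3. H3K36 methylation, laid down by enzymes such as Setd2 and Nsd1, marks transcribed chromatin and keeps the Polycomb mark H3K27me3 off it. A K36M histone acts as a dominant inhibitor of several H3K36 methyltransferases.

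Total gene counts were 19035060 and 20064629 in the K36M d4 libraries and 22436662 and 34324483 in the WT d8 libraries, within a range of 17507521 to 35622279 over all 28. Of 25652 genes with at least 1 count, 16932 had enough counts to be tested. Replicates differed by a log2 SD of 0.358 in K36M d4 and 0.347 in WT d8, against 0.653 in K36M d6, the group with the widest spread. H3f3a, which codes for H3.3, stood at 170 and 186 CPM (counts scaled to a common library size) in K36M d4 and at 191 and 195 CPM in WT d8. H3f3b, the other H3.3 gene, stood at 372 and 383 CPM against 375 and 374 CPM. Counts per gene cannot show which allele was read, so they do not check the genotype.

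The pair was chosen by a course score, computed from the expression values themselves, which places each library on the path from WT d0 (score 0) to the mean of the WT iPSC libraries (score 100) over 5346 genes that differed at least 4-fold between these ends, 3018 of them rising and 2328 falling. The WT d8 libraries scored 49.6 and 50.3 and the K36M d4 libraries 66.6 and 66.5, while the next WT stage, iPSC, scored 101.4 and 98.6. K36M d4 thus lay past WT d8 and short of WT iPSC, and no WT day had its score. Among K36M stages, d2 scored 40.6 in both libraries, which is nearer to WT d8 than K36M d4 is. Rising genes placed WT d8 at 47.8 and 48.5 and K36M d4 at 59.9 and 59.6. Falling genes placed WT d8 at 52.3 and 53.2 and K36M d4 at 76.8 and 77.1. The distance between the groups was therefore wider over genes that are lost on the way to iPSCs than over genes that are gained. Because these values chose the pair, the 5346 score genes are described below with levels and log2 differences ± SE and no p-value. P-values are printed only for the 11586 tested genes outside the score. The libraries that chose the day also gave these p-values, so the p-values are not free of that choice. Genes outside the score include those that differed less than 4-fold between WT d0 and WT iPSC, which may also follow the course. Outside the score 4931 genes differed between K36M d4 and WT d8 at an adjusted p below 0.05 (edgeR quasi-likelihood test). Of these, 1312 did not differ between WT d0 and WT iPSC by the same test and threshold. The others changed between the ends of the WT course, so their differences may lie along it.

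**Figure D1:**
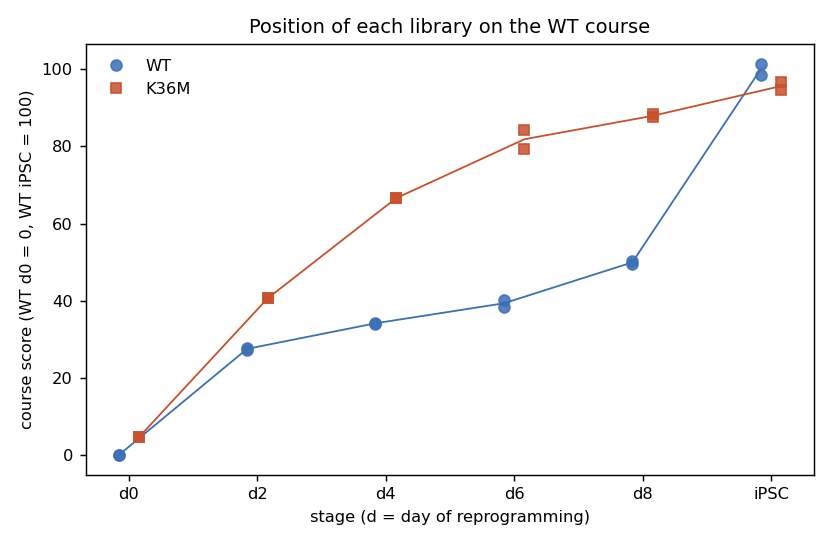
Course score of each library (y axis, WT d0 = 0 and WT iPSC = 100) by stage (x axis), with points for libraries and lines through the means of the 2 libraries of WT and of K36M. K36M d4, at 66.6 and 66.5, lies above every WT intermediate, of which WT d8, at 49.6 and 50.3, is the highest.

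Across the transcriptome 3773 of 16932 tested genes were higher in K36M d4 (22.3%) and 3966 were lower (23.4%) by edgeR's quasi-likelihood test at an adjusted p below 0.05, and 1348 of the higher (7.96%) and 1683 of the lower (9.94%) differed at least 2-fold. The libraries of the groups did not overlap in 13028 of all tested genes (76.9%). Outside the score 4931 of 11586 genes differed (42.6%), 2509 higher (21.7%) and 2422 lower (20.9%), and 562 (4.85%) and 686 (5.92%) did so at least 2-fold. Over the same genes 1477 differed between WT d8 and WT d6 (12.7%) and 6496 between K36M d6 and K36M d4 (56.1%). The number of genes outside the score that separated K36M d4 from each WT stage was 7536 for d0 (65%), 4996 for d2 (43.1%), 5515 for d4 (47.6%), 5563 for d6 (48%), 4931 for d8 and 7094 for iPSCs (61.2%). By the root mean square of the log2 difference over these genes, WT d8 was the nearest WT stage at 0.734, followed by d6 at 0.826, d4 at 0.857 and d2 at 0.883. The replicates of K36M d4 stood 0.305 apart and those of WT d8 0.304 apart on this measure. By the median absolute log2 difference the nearest stage was WT d2 at 0.313, with WT d8 at 0.325.

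The score genes showed the same distance as counts, which are a description. In all 1366 rising genes (45.3%) and 1442 falling genes (61.9%) differed. Of the rising genes 1071 of 3018 were higher in K36M d4 (35.5%) and 295 were lower (9.77%). Of the falling genes 1249 of 2328 were lower (53.7%) and 193 were higher (8.29%). Their median log2 difference was 0.49 for rising and -0.70 for falling genes, and 0.02 outside the score. In bulk RNA, fewer cells of a type and less RNA per cell cannot be told apart, which holds for every level below. The counts of higher and lower genes in the lists below use the same threshold for score genes and other genes. They are a description where they hold score genes. Each is to be read against the 22.3% higher and 23.4% lower over all tested genes.

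Outside the score, the genes with the largest rise in K36M d4 included several of differentiated epithelia and of the cell surface. They are printed with the promoters of 3 of the genes with the largest differences, taken from RefSeq on GRCm38.p6 (250 bases before to 50 after the annotated start, on the gene's strand). The motifs searched on both strands were TGANTCA (AP-1), AACCNGT (grainyhead-like), ATGCAAA (octamer), CACGTG (E-box) and CATTCC (TEAD), and capitals mark a match. Abca12 lies at chr1:71414861-71415160 on the minus strand, Cp at chr3:19956804-19957103 on the plus strand and Prelp at chr1:133921352-133921651 on the minus strand.
Abca12: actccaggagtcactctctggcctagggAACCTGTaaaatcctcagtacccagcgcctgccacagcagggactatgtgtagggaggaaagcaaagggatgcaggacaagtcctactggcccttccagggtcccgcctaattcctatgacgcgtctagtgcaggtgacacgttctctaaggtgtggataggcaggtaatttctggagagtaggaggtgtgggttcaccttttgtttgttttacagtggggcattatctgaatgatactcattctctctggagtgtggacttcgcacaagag
Cp: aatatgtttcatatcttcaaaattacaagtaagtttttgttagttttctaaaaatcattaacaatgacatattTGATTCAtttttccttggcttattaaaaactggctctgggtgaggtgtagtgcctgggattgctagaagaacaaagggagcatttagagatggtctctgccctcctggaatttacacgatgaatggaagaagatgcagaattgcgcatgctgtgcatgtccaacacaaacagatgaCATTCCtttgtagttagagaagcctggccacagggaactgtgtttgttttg
Prelp: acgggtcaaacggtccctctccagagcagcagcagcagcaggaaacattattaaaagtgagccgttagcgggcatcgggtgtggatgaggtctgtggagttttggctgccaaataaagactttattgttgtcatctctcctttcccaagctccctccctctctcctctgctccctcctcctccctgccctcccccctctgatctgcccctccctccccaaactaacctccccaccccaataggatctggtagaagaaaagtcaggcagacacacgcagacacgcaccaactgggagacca
The Abca12 promoter held the grainyhead-like letters, the Cp promoter those of AP-1 and TEAD, and the Prelp promoter none of the 5 motifs. Over the 14165 promoters of tested genes, AACCNGT stood in 7.48%, TGANTCA in 5.6%, CATTCC in 12.8%, CACGTG in 9.47% and ATGCAAA in 3.51%. Of the 10 largest rises, 8 genes had 9 promoters in the table, with 1 holding the grainyhead-like letters and 0 any other motif. Of the 10 largest falls, 7 genes had 8 promoters, with 1 holding AP-1 letters, 1 an E-box and 2 TEAD letters, both TEAD matches being the same letters in overlapping Cp promoters. A match is a description of letters and not a bound site.

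Abca12, a lipid transporter of keratinocyte lamellar granules on chromosome 1 from 71289664 to 71461484 of mm9, was at 36.6 and 36.7 CPM in K36M d4 and at 0.456 and 0.403 CPM in WT d8. The groups did not overlap, and the log2 difference of 6.41 ± 0.53 (SE, n = 2 libraries each; adjusted p = 8.38e-09, edgeR quasi-likelihood test) was the largest rise among the named genes outside the score. Abca12 also exceeded every WT stage, and it stood at 16.3 ± 0.92 CPM (SD, n = 2) in K36M d8 and at 0.051 ± 0.00121 CPM in K36M iPSCs. Naalad2, a peptidase of the glutamate carboxypeptidase family, was at 22.8 and 22.1 CPM against 0.498 and 0.43 CPM (log2 difference 5.60 ± 0.35, adjusted p = 1.33e-11). Naalad2 stood at 20.6 ± 3.2 CPM in K36M d2 and at 3.66 ± 0.23 CPM in K36M d8. It was also at 26.3 ± 0.628 CPM in K36M MEFs without OKSM, against 1.64 ± 0.0978 CPM in WT MEFs without OKSM, so its high level was not limited to reprogramming cells. Robo3, an axon guidance receptor, was at 18.1 and 20.3 CPM against 0.747 and 0.376 CPM (5.17 ± 0.24, adjusted p = 1.06e-13). The other 7 of the 10 were Cdh4 (a classical cadherin), Gpr132 (a G protein-coupled receptor), Klk10 (a kallikrein-related peptidase of epithelia), Bcl2l15 (a Bcl-2 family member), Ces2e (a carboxylesterase), Snx20 (a sorting nexin) and B3gnt3 (a glycosyltransferase of mucin-type glycans). Their log2 differences ran from 3.73 for B3gnt3 to 4.86 for Cdh4. For Cdh4 the WT d8 libraries held 0.083 and 0.296 CPM, and without WT d8 replicate 2 its difference was 6.14. All 10 were above every WT stage, a class described below that holds 4.44% of all tested genes.

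Among the genes with the largest fall outside the score were secreted matrix and growth-factor-binding proteins that WT cells gain on the way and lose again. Prelp, a leucine-rich repeat proteoglycan of connective tissue on chromosome 1 from 135806881 to 135817991 of mm9, was at 0.738 and 0.798 CPM in K36M d4 and at 106 and 120 CPM in WT d8. Its log2 difference was -7.19 ± 0.18 (adjusted p = 2.59e-18). In WT, Prelp went from 1.72 ± 0.38 CPM at d0 through 55.0 ± 2.48 at d4 to 111 ± 3.44 at d6 and was at 4.28 ± 0.67 CPM in iPSCs, whereas the highest intermediate K36M value, at d2, was 1.35 ± 0.30 CPM. Igfbp3, which binds insulin-like growth factors in serum and tissue, was at 15.1 and 13 CPM against 401 and 390 CPM (-4.82 ± 0.12, adjusted p = 2.67e-18). WT Igfbp3 was at 19.0 ± 3.24 CPM at d0 and 18.1 ± 2.4 CPM in iPSCs, and at 168 ± 2.05 CPM or more on average in each intermediate between them. Cp, the copper-binding ferroxidase ceruloplasmin, was at 0.64 and 1.03 CPM against 25 and 27.3 CPM (-4.95 ± 0.26, adjusted p = 9.03e-13). Others were Dkk2 (a secreted Wnt modulator), Gda (guanine deaminase), Glt25d2 (a collagen galactosyltransferase), Rgs7bp (a membrane anchor of RGS proteins) and Bmp4 (a bone morphogenetic protein). Their log2 differences ran from -4.47 for Dkk2 to -3.95 for Bmp4. The K36M d4 libraries held 0.197 and 0.986 CPM of Dkk2, and its difference was -3.76 without K36M d4 replicate 1 and -6.05 without replicate 2. For Glt25d2 the difference was -4.88 without K36M d4 replicate 1.

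That shape was counted over all genes outside the score. Of the 686 genes lower by at least 2-fold, 197 (28.7%) had WT d8 at least 2-fold above both WT d0 and WT iPSC with no overlap of libraries, against 744 of all 11586 (6.42%). Of the 562 genes higher by at least 2-fold, 277 (49.3%) had K36M d4 above both ends in the same way, against 831 of all (7.17%). K36M d4 stood at least 2-fold below both ends in 251 (36.6%) of the lower genes, against 711 of all (6.14%). These shares use the same WT d8 and K36M d4 values that made the genes differ, so they are a description and nothing was tested with them.

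**Figure D2:**
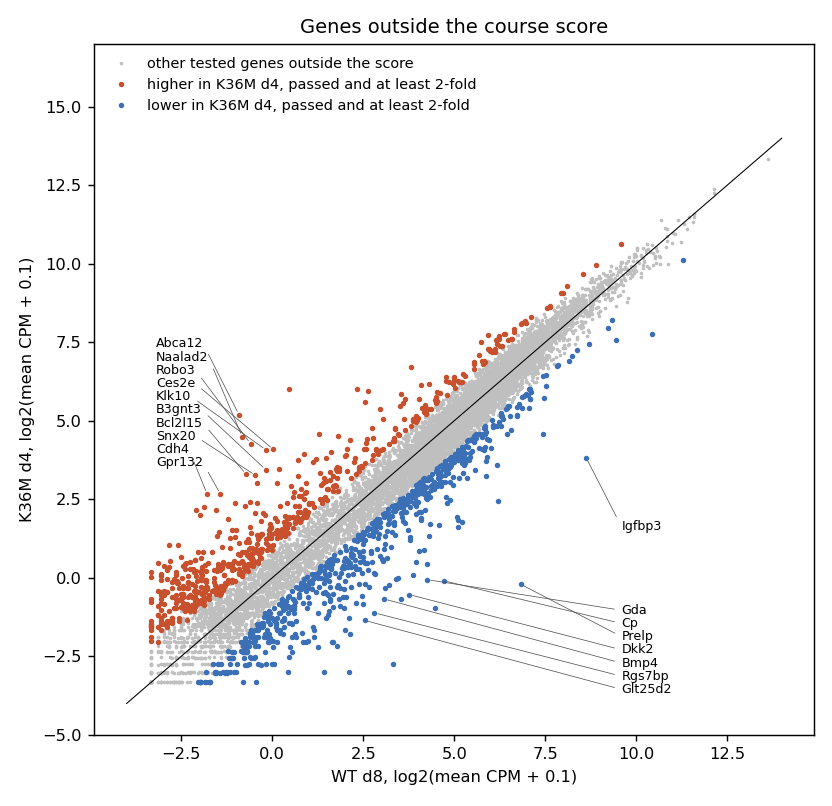
Mean level of each gene outside the course score in WT d8 (x axis) and K36M d4 (y axis), as log2(mean CPM + 0.1), with red and blue points for the 562 higher and 686 lower genes that passed the test and differed at least 2-fold, and a line of equal level. Of the genes with the largest differences 18 are labelled, with Abca12 the labelled gene farthest above the line and Prelp the labelled gene farthest below it.

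The genes of pluripotency did not move as a block. All values in this paragraph are of score genes unless stated. Of 18 general pluripotency genes, 10 were higher in K36M d4 and 3 lower, with a median log2 difference of 0.59, while of 18 naive pluripotency genes, 3 were higher and 9 lower, with a median of -0.49. The median over all tested genes was 0.00. The general list score was 64.7 and 65.3 in K36M d4 against 63.4 and 63.7 in WT d8. Foxd3 and Trap1a, given with the naive genes below, had the largest differences of the general list and were lower. Lin28a, an RNA-binding protein that blocks let-7 maturation, was at 45.7 and 47.8 CPM in K36M d4 and at 9 and 9.78 CPM in WT d8 (log2 difference 2.31 ± 0.14). Sall4, a zinc finger factor of the early pluripotency network, was at 108 and 103 CPM against 47.5 and 37.6 CPM (1.31 ± 0.17). Both stood clear of WT d8, and Lin28b, Trim71, Zscan10, Dppa2 and Mybl2 were higher by 0.75 to 1.14. Cdc25c and Epha1, which lie outside the score, were also higher. The reprogramming factor gene Pou5f1 (Oct4) was at 433 and 445 CPM against 227 and 266 CPM (0.83 ± 0.18), whereas Sox2 differed by 0.05 ± 0.17, Klf4 by 0.30 ± 0.13 and Myc by 0.08 ± 0.20. Reads cannot show whether these 4 come from the OKSM factors or the cells' own genes.

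The naive list is gained late by WT cells, with list scores of 24.0 and 23.9 at d6 and of 53.6 and 53.3 at d8, and 9 of its genes were lower in K36M d4. Nanog, the homeodomain factor that stabilises the naive state, was at 52.3 and 55.7 CPM in K36M d4 and at 73 and 82.1 CPM in WT d8 (log2 difference -0.52 ± 0.10). Esrrb, an orphan nuclear receptor of the naive network, was at 9.25 and 9.63 CPM against 28.1 and 27.8 CPM (-1.57 ± 0.26). Dppa5a, an RNA-binding protein of naive cells, was at 1.33 and 2.16 CPM against 43.8 and 35.8 CPM (-4.5 ± 0.52). The groups did not overlap for any of them, and Tfcp2l1, a naive transcription factor, was lower by a like amount to Esrrb, at 22.5 and 22.3 CPM against 52.7 and 50.5 CPM (-1.20 ± 0.16). Dppa3 (Stella), a maternal factor that protects DNA methylation, was at 1.43 and 1.69 CPM against 6.51 and 7.68 CPM (-2.19 ± 0.26). Prdm14, a repressor of differentiation genes, had 0 counts in K36M d4 and 101 in WT d8, which is at least 22.8-fold lower with a floor of 3 counts over the group. In the general pluripotency list, Foxd3 had 1 count against 72, and Trap1a was at 0.64 and 0.657 CPM against 4.52 and 6.02 CPM (-3.03 ± 0.42). The 3 naive genes that were higher were Fgf4 (0.89 ± 0.10), the growth factor of the early embryo, Nr5a2 (0.84 ± 0.15), a nuclear receptor, and Klf5 (0.77 ± 0.11), a Krüppel-like factor. Zfp42 (Rex1) was at 2.56 and 2.49 CPM against 1.37 and 1.75 CPM (0.67 ± 0.34). On that list score K36M d4 stood at 43 and 44 and K36M d8 at 78.5 and 78. The summed level of the 18 genes was 299 to 301 CPM in K36M d4, 363 to 372 CPM in WT d8 and 5990 to 6000 CPM in WT iPSCs. At d8 in K36M cells, Nanog was at 214 CPM, Esrrb at 160 CPM and Dppa5a at 354 CPM, all above WT d8, so the lower levels at K36M d4 were followed by higher ones.

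Genes of DNA methylation and of Nodal signalling lay on both sides too, where 22.3% of all tested genes were higher and 23.4% lower. Dnmt3b, a de novo methyltransferase of the epiblast, was at 191 and 188 CPM against 43.7 and 47.7 CPM (2.05 ± 0.12), and Uhrf1, which guides Dnmt1 to replicated DNA, at 377 and 358 CPM against 157 and 177 CPM (1.14 ± 0.11). Dnmt3l, a cofactor of those enzymes, was at 0.197 and 0.376 CPM against 2.53 and 3.17 CPM (-3.30 ± 1.02), with values between -3.84 and -2.93 when 1 library of either group was left out. Dnmt3l was not counted as lower in 3 of 22 alternative settings. Of 9 methyltransferase and Tet genes 5 were higher and 2 lower, and the 3 outside the score, Dnmt1 (0.58 ± 0.09, adjusted p = 2.59e-05), Dnmt3a (0.33 ± 0.11, adjusted p = 0.0148) and Tdg (0.82 ± 0.15, adjusted p = 6.62e-05), were all higher. The call of Dnmt3a was lost in 3 of 22 alternative settings, without WT d8 replicate 1 (0.19, adjusted p = 0.255, the largest over the alternatives), K36M d4 replicate 1 or K36M d4 replicate 2. Of 14 Nodal pathway genes 5 were higher and 2 lower, all 5 of the higher ones being score genes. Of the 4 outside the score 0 were higher and 1, Smad3, a signal transducer of Nodal, was lower (-0.34 ± 0.10, adjusted p = 0.00757, edgeR quasi-likelihood test), with a median of -0.29. The ligand gene Nodal was at 34.9 and 38.7 CPM against 17.4 and 14.8 CPM (1.20 ± 0.14), its inhibitor Lefty2 at 27.8 and 33 CPM against 12.5 and 12.3 CPM (1.29 ± 0.12), and its transcriptional partner Foxh1 at 29.1 and 29.6 CPM against 9.62 and 10.3 CPM (1.56 ± 0.13). All 3 were clear of WT d8, and Pcsk6, a convertase that processes Nodal, was lower (-0.77 ± 0.10). Of 9 tested formative and primed genes 2 were higher and 2 lower, and the lower count was 1 under 13 of 22 alternative settings, in which Sfrp2, a secreted Wnt antagonist and score gene (-0.60 ± 0.25), was not counted. The higher ones were Dnmt3b and Dnmt3a, and Sox11, a neural and epiblast factor outside the score, was lower (-1.40 ± 0.18, adjusted p = 1.28e-06). Fgf5 had 1 count in K36M d4 and 0 in WT d8, and Otx2 had 1 and 3, so both were near the floor in both groups. Of 18 germline genes 4 were higher and 2 lower. Ddx4, an RNA helicase of germ cells, was at 1.97 and 1.55 CPM against 0.456 and 0.403 CPM (2.03 ± 0.30), and the list score was 20.7 and 19.8 in K36M d4 against 20.5 and 18.6 in WT d8.

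**Figure D3:**
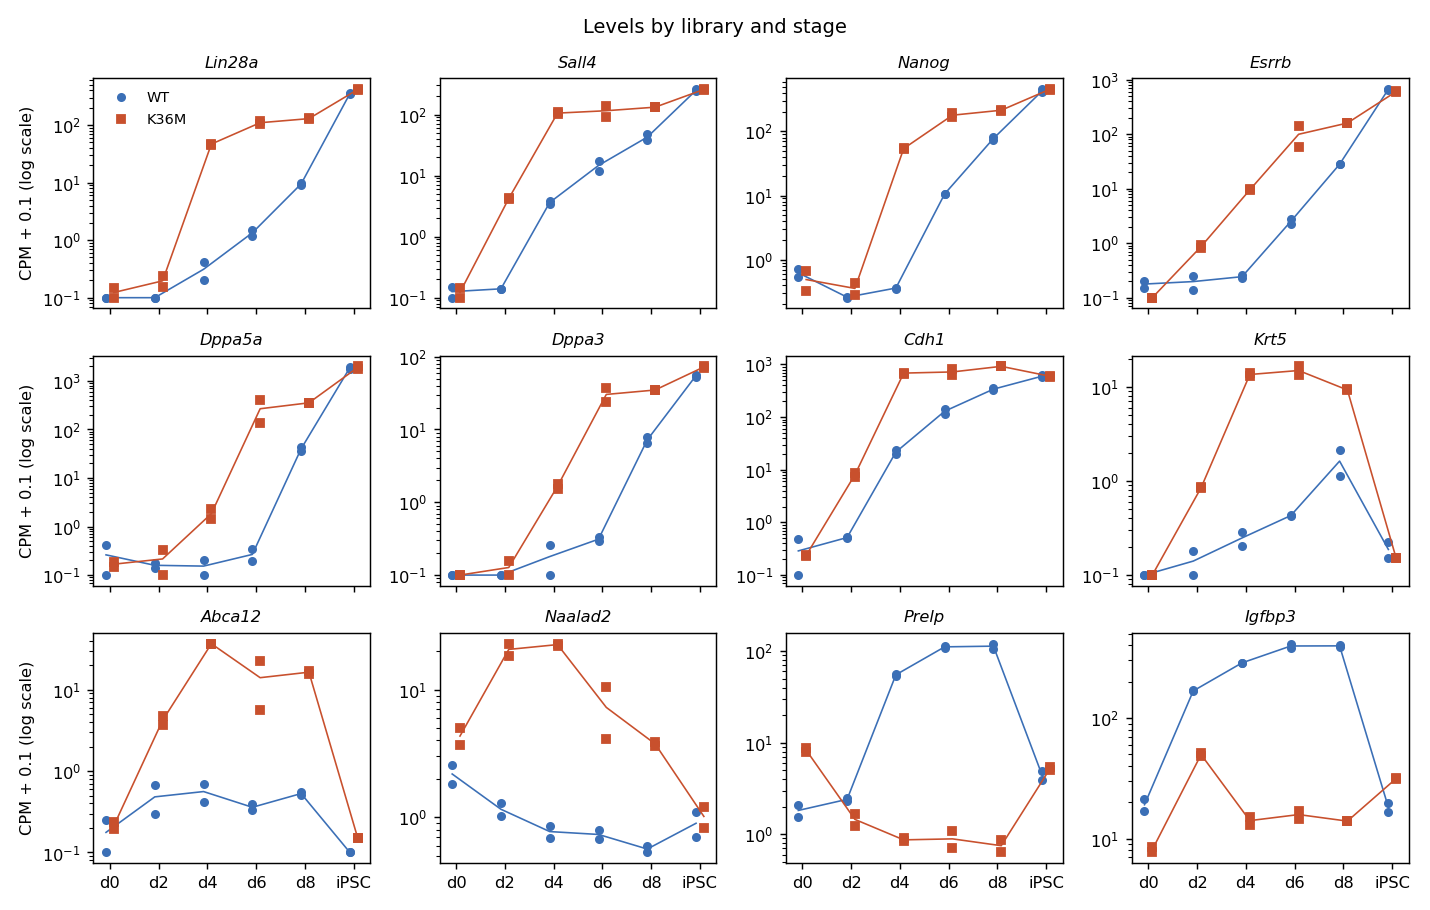
Levels of 12 genes as CPM + 0.1 on a log axis (y axis) by stage (x axis), with points for libraries and lines through the means of WT (blue) and K36M (red). At WT d8 and K36M d4, Lin28a, Sall4, Cdh1, Krt5, Abca12 and Naalad2 are higher in K36M d4, and Nanog, Esrrb, Dppa5a, Dppa3, Prelp and Igfbp3 are higher in WT d8.

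Epithelial genes were further advanced in K36M d4 than in WT d8. Of 30 genes of epithelial adhesion and its regulators 23 were higher and 2 lower (median log2 difference 0.87). Of the 30, 10 exceeded every WT stage, including iPSCs, against 4.44% of all tested genes. Cdh1 (E-cadherin), the adhesion receptor of epithelia, was at 698 and 672 CPM in K36M d4 and at 358 and 321 CPM in WT d8 (1.01 ± 0.15), and Epcam, another surface adhesion molecule, at 342 and 356 CPM against 226 and 204 CPM (0.70 ± 0.10). The tight junction genes Crb3 (1.89 ± 0.12), Cldn6 (1.80 ± 0.12) and Ocln (1.54 ± 0.21) and the desmosome gene Dsp (1.32 ± 0.15) were among the 10 above every WT stage. The epithelial transcription factors Grhl2 (1.10 ± 0.14), Grhl3 (1.14 ± 0.16) and Elf3 (1.24 ± 0.21) and the splicing regulator Esrp1 (1.21 ± 0.11) were also higher. Of the 5 members outside the score, Dsc2 (1.40 ± 0.22, adjusted p = 2.93e-05), Esrp2 (0.86 ± 0.14, adjusted p = 2.51e-05) and Cdh3 (0.68 ± 0.19, adjusted p = 0.0046) were higher. Ehf, an ETS factor of epithelia, was lower, at 3.79 and 3.62 CPM against 30.9 and 36.4 CPM (-3.18 ± 0.32, adjusted p = 3.71e-07). Ehf was at 41.5 CPM in WT d6 and at 0.02 CPM in WT iPSCs. Rab25, an epithelial trafficking GTPase, was the other lower member (-1.48 ± 0.16).

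All 10 tested keratins were higher in K36M d4, with a median log2 difference of 1.56, and 6 of them lie outside the score. Krt5, the basal keratin of stratified epithelia on chromosome 15 from 101537501 to 101543322 of mm9, was at 13.9 and 13 CPM against 2.03 and 1.02 CPM (3.20 ± 0.26, adjusted p = 3.18e-09). Its partner Krt14 was at 15.6 and 18.3 CPM against 4.56 and 3.47 CPM (2.09 ± 0.21, adjusted p = 3.89e-08). The simple-epithelial keratin Krt18 was at 196 and 218 CPM against 78.1 and 71.8 CPM (1.47 ± 0.13, adjusted p = 2.19e-09). Krt15 (2.21 ± 0.56, adjusted p = 0.00242), Krt6a (1.65 ± 0.32, adjusted p = 0.000433) and Krt19 (0.75 ± 0.15, adjusted p = 0.000206) completed the 6. Keratin genes share sequence, and how reads matching several of them were counted is not given in the sources used here, so single members are uncertain. In iPSCs of both genotypes Krt5 and Krt14 were below 1 CPM. Of 13 keratinocyte markers 7 were higher and 2 lower, and all 7 exceeded every WT stage, against 4.44% of all tested genes. Sfn, a cell cycle adaptor of keratinocytes, was at 267 and 292 CPM against 141 and 109 CPM (1.16 ± 0.14, adjusted p = 3.55e-07). Perp, a desmosome-associated membrane protein, was at 741 and 750 CPM against 526 and 502 CPM (0.54 ± 0.13, adjusted p = 0.00168). Dsg3 passed narrowly (adjusted p = 0.0493) and failed under 17 of 22 alternative settings. Trp63, the master regulator of stratified epithelia, had 0 counts in K36M d4 and 13 in WT d8, at least 2.94-fold lower with a floor of 3 counts over the group, so this defining marker was not detected in K36M d4 at this depth.

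**Figure D4:**
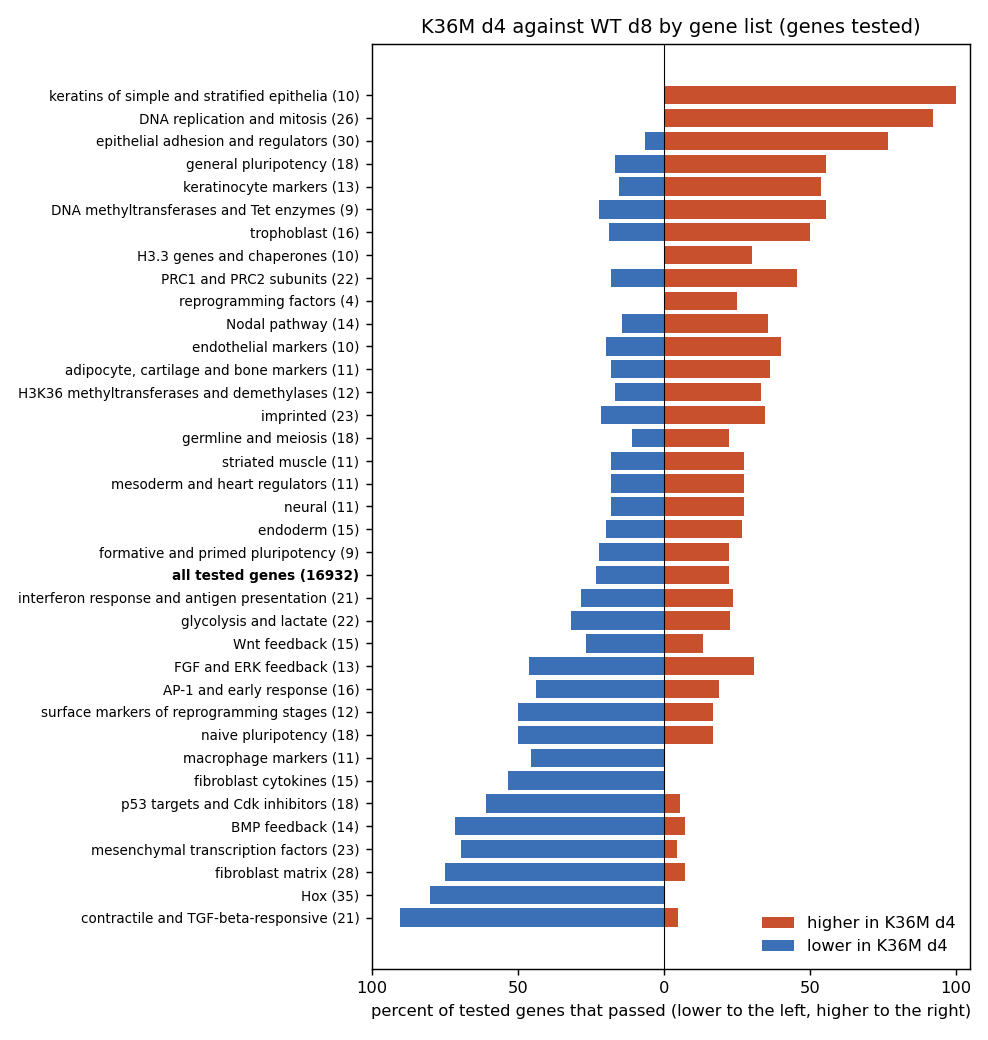
Share of tested genes that passed the test, as percent of each list (x axis, higher in K36M d4 to the right in red, lower to the left in blue), for 36 gene lists and all tested genes, with the number tested in parentheses. Keratins, replication and mitosis genes and epithelial genes lie at the top, contractile, Hox and fibroblast matrix genes at the bottom, and all tested genes at 22.3 to the right and 23.4 to the left.

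Mesenchymal and fibroblast genes, nearly all of them score genes, had been lost further in K36M d4. Of 23 tested mesenchymal transcription factors 16 were lower and 1 higher (median log2 difference -1.68). Prrx1, a homeodomain factor of limb mesenchyme, was at 46.1 and 46.3 CPM against 210 and 211 CPM (-2.19 ± 0.14). Twist1, a bHLH factor of mesenchyme, was at 6.64 and 6.2 CPM against 26.3 and 29.6 CPM (-2.12 ± 0.15), and Zeb2, a repressor of Cdh1, at 5.41 and 5.45 CPM against 20.4 and 22.2 CPM (-1.97 ± 0.18). Snai2, another such repressor, was at 0.394 and 0.282 CPM against 3.32 and 3.76 CPM (-3.38 ± 0.37). Runx1 (-0.62 ± 0.12) and Runx2 (-0.96 ± 0.16) were lower by less, and Twist2 was the higher member (0.53).

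Of 28 fibroblast matrix genes 21 were lower and 2 higher (median -2.63), and 15 were below every WT stage, against 4.13% of all tested genes. Col1a1, the main chain of type I collagen, was at 95 and 103 CPM against 625 and 557 CPM (-2.58 ± 0.22), and Thbs1 (thrombospondin) at 157 and 153 CPM against 3330 and 3223 CPM (-4.41 ± 0.19). Fmod, a collagen-binding proteoglycan, was at 0.246 and 0.188 CPM against 65.9 and 72.6 CPM (-8.29 ± 0.28). Of the 6 members outside the score, Prelp and Fn1 were lower and Lum and Col6a1 higher. Fn1 (fibronectin) was at 223 and 215 CPM against 1297 and 1487 CPM (-2.67 ± 0.27, adjusted p = 1.12e-07). Lum (lumican), at 0.935 and 1.13 CPM against 0.0415 and 0.0806 CPM, went the other way at low levels (3.88 ± 0.53, adjusted p = 2.79e-06). The summed level of the 28 genes was 66300 to 79900 CPM in WT d0, 10400 to 10500 CPM in WT d8, 2670 to 2750 CPM in K36M d4 and 5470 to 6700 CPM in WT iPSCs. WT iPSC libraries thus held more matrix RNA than K36M d4, K36M iPSCs did as well (5760 to 6790 CPM), and the part of this in the genes found below every WT stage was not tested.

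Of 21 contractile and TGF-beta-responsive genes 19 were lower and 1, Tgfb1, higher (median -2.18). Acta2 (smooth muscle actin) was at 52.4 and 47 CPM against 472 and 390 CPM (-3.12 ± 0.16), and Ltbp2, a matrix protein of elastic fibres, at 7.53 and 7.65 CPM against 253 and 258 CPM (-5.07 ± 0.21). Outside the score the matricellular gene Cyr61 (-1.25 ± 0.10, adjusted p = 3.94e-10) and Tgfbi (-2.43 ± 0.14, adjusted p = 3.35e-12) were lower. Of 15 fibroblast cytokine and growth factor genes 8 were lower and 0 higher, 10 of the 15 being score genes. Of the 5 outside the score 1 was lower and 0 higher, with a median of 0.20. Cxcl12, a stromal chemokine, was at 0.148 and 0.235 CPM against 8.05 and 9.89 CPM (-5.51 ± 0.33), and Cxcl5, the lower gene outside the score, at 0.148 and 0.141 CPM against 3.48 and 2.58 CPM (-4.32 ± 0.40, adjusted p = 1.24e-08). Of 12 surface markers of reprogramming stages 6 were lower and 2 higher. Thy1, a fibroblast surface protein, was at 46.5 and 45.1 CPM against 138 and 114 CPM (-1.46 ± 0.14), and Fut4, which makes the SSEA1 antigen, was higher (1.66 ± 0.25).

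Hox genes, which record the position of the source tissue, were lower in 28 of 35 tested members and higher in 0 (median -1.42). Hoxa3 was at 0.64 and 0.704 CPM against 9.25 and 8.41 CPM (-3.70 ± 0.23), Hoxa5 at 1.82 and 1.88 CPM against 16.7 and 12.4 CPM (-2.96 ± 0.22), and Hoxc8 at 13.7 and 11.8 CPM against 71.5 and 66.4 CPM (-2.43 ± 0.15). Of the 6 members outside the score 3 were lower. Hoxd11 among them held 0 and 0.235 CPM against 1.37 and 3.17 CPM, and its difference of -4.23 became -8.76 without K36M d4 replicate 2 and -3.29 without replicate 1. The list score was 14.8 and 16 in WT d8 and 48.6 and 49 in K36M d4, so neither group had completed this loss.

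BMP pathway genes followed the same direction and include members outside the score. Of 14 tested genes 10 were lower and 1, Bmp7, higher (median -1.75), and 5 of the 7 outside the score were lower. The ligand gene Bmp4 was at 0.443 and 0.61 CPM against 8.88 and 7.74 CPM (-3.95 ± 0.33, adjusted p = 1.74e-09) and lay below every WT stage, the lowest of which was d2 at 2.18 CPM. Bmp4 was at 0.455 CPM in K36M d2 as well. Bmp2, another ligand, was at 0.148 and 0.188 CPM against 0.954 and 1.96 CPM (-3.13 ± 0.53, adjusted p = 4.31e-05), with a value of -2.47 without WT d8 replicate 2. The inhibitory Smads, which BMP signals induce, were lower, Smad6 at 6.69 and 7.04 CPM against 20.6 and 20.3 CPM (-1.57 ± 0.10, adjusted p = 3.28e-11) and Smad7 at 17.8 and 18.2 CPM against 43.3 and 39.3 CPM (-1.20 ± 0.18, adjusted p = 9.82e-06). The secreted antagonists Grem1 (-3.71 ± 0.20) and Nog (-2.51 ± 0.21) were lower as well. Id2, a direct target of BMP signals, was at 137 and 130 CPM against 131 and 127 CPM (0.06 ± 0.11, adjusted p = 0.726), and Id1 differed by 0.03 ± 0.13. In K36M d8, Bmp4 was at 6.57 CPM, with a log2 difference from WT d8 of -0.33 (adjusted p = 0.202).

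In the Wnt list 4 of 15 genes were lower and 2 higher, among them Dkk2 and Nkd2 (-2.35 ± 0.21, adjusted p = 5.62e-09), both inhibitors, while Axin2, the general Wnt feedback gene, differed by 0.23 ± 0.15. In the FGF and ERK list 6 of 13 were lower and 4 higher, the higher count being 2 without either WT d8 library, and Spry1, a feedback inhibitor outside the score, was at 3.84 and 5.45 CPM against 11.4 and 11.3 CPM (-1.29 ± 0.16, adjusted p = 6.97e-07). Dusp6, the ERK phosphatase, differed by -0.14 ± 0.10 (adjusted p = 0.233). Of 16 AP-1 and early response genes 7 were lower and 3 higher. The shares over all tested genes, for each list in this paragraph, were 23.4% lower and 22.3% higher. Junb was lower (-0.52 ± 0.10, adjusted p = 0.000273), Atf3 higher (0.96 ± 0.13, adjusted p = 1.69e-06), and Jun was at 67 and 62.7 CPM against 72 and 70.3 CPM (-0.13 ± 0.10, adjusted p = 0.281). Of 21 interferon response and antigen presentation genes 5 were higher and 6 lower, H2-K1 being higher (0.89 ± 0.09, adjusted p = 2.3e-08).

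**Figure D5:**
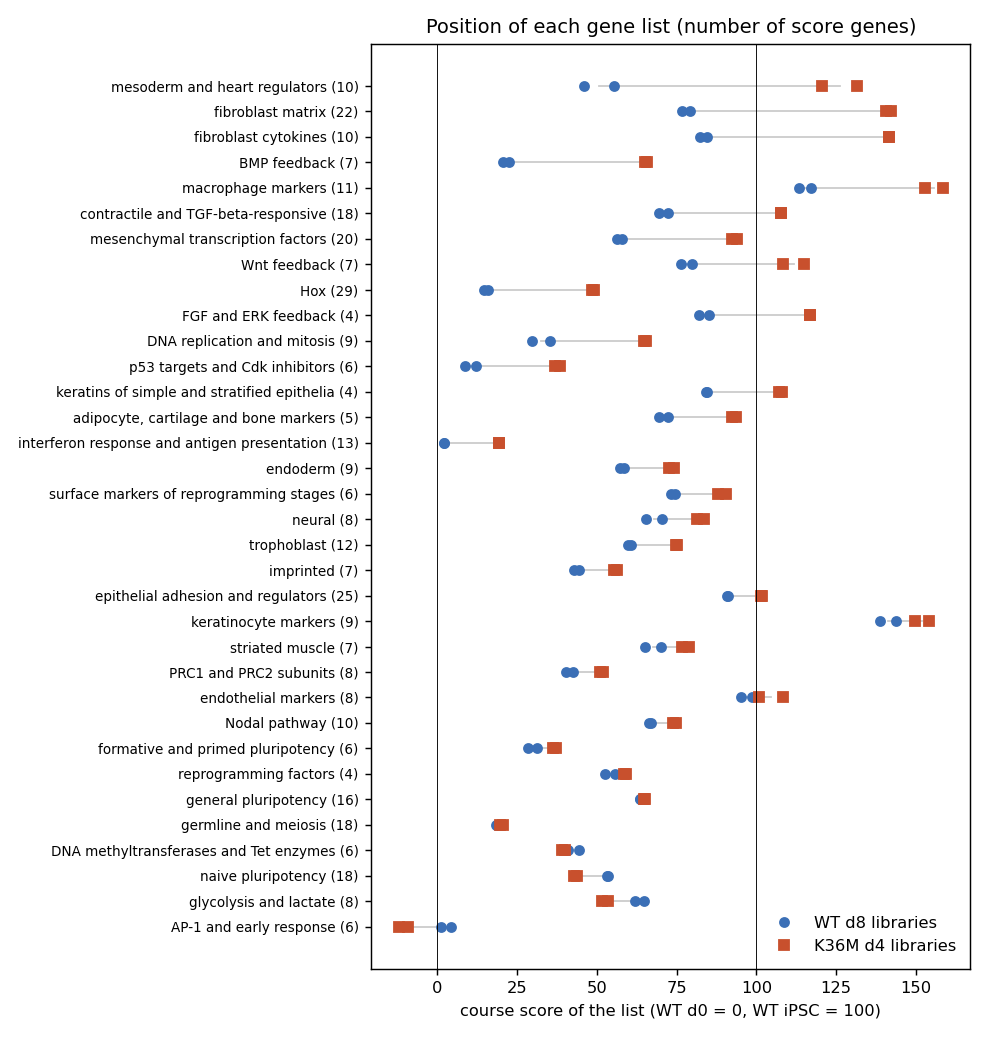
Course score of each gene list (x axis, WT d0 = 0 and WT iPSC = 100, marked by vertical lines) in the WT d8 libraries (blue circles) and the K36M d4 libraries (red squares), with the number of score genes in parentheses. The lists are ordered by the difference, with mesoderm, fibroblast matrix, cytokine and BMP genes farther along in K36M d4 at the top, general pluripotency and germline genes near WT d8, and naive pluripotency, glycolysis and AP-1 genes below WT d8 at the bottom.

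Genes of the cell cycle were higher in K36M d4, and most of them lie outside the score. Of 26 genes of DNA replication and mitosis 24 were higher and 0 lower (median log2 difference 0.86), and of the 17 outside the score 15 were higher. Plk1, a mitotic kinase, was at 158 and 145 CPM against 62.3 and 64.2 CPM (1.26 ± 0.10, adjusted p = 8.57e-10). Mki67, the marker of cycling cells, was at 534 and 552 CPM against 213 and 275 CPM (1.15 ± 0.14, adjusted p = 7.56e-07). Aurka, a spindle kinase, was at 194 and 183 CPM against 90 and 87 CPM (1.09 ± 0.09, adjusted p = 6.89e-10). The groups did not overlap, and the replication genes Mcm4 (0.88 ± 0.11, adjusted p = 5.85e-07) and Ccne1 (0.94 ± 0.08, adjusted p = 4.32e-09) were higher too. E2f1 (-0.05) and Pcna (0.29) did not pass. Of 18 p53 targets and Cdk inhibitors 11 were lower and 1 higher (median -0.41), with 6 of 12 outside the score lower. The lower count of this list was 7 without WT d8 replicate 1 and 6 without K36M d4 replicate 2. Cdkn1a (p21), an inhibitor of Cdk2, was at 448 and 425 CPM against 872 and 857 CPM (-0.99 ± 0.10, adjusted p = 3.72e-08). Cdkn2a (-1.72 ± 0.14) and Cdkn2b (-2.06 ± 0.15), Cdk inhibitor genes linked to senescence, are score genes and were lower. Mdm2, a p53 target outside the score, was at 385 and 384 CPM against 426 and 422 CPM (-0.14 ± 0.08, adjusted p = 0.152).

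Chromatin genes differed by less. Of 12 genes for H3K36 methyltransferases and demethylases, none of them in the score, 4 were higher and 2 lower. The list median was -0.08, and 22.3% of all tested genes were higher and 23.4% lower. Setd2, the H3K36 trimethylase, was at 193 and 187 CPM against 110 and 125 CPM (0.69 ± 0.16, adjusted p = 0.00133). Nsd1 (0.46 ± 0.14, adjusted p = 0.0123) and Whsc1 (0.50 ± 0.11, adjusted p = 0.000586), both H3K36 dimethylases, and Kdm2b (0.54 ± 0.12, adjusted p = 0.000532), a demethylase that recruits PRC1, were higher. The demethylases Kdm4a (-0.52 ± 0.09, adjusted p = 2.85e-05) and Kdm4b (-0.46 ± 0.14, adjusted p = 0.0108) were lower. Of 10 H3.3 genes and chaperones 3 were higher and 0 lower: Daxx was at 69 and 70 CPM against 40.4 and 37.5 CPM (0.84 ± 0.11, adjusted p = 8.35e-07), and Asf1a and Dek were higher by 0.61 and 0.59. H3f3a differed by -0.12 ± 0.11 (adjusted p = 0.409) and H3f3b by 0.01 ± 0.08 (adjusted p = 0.924). Of 22 Polycomb subunits 10 were higher and 4 lower, the lower count being 2 without WT d8 replicate 1, K36M d4 replicate 1 or K36M d4 replicate 2. Suz12, a core PRC2 subunit, was at 376 and 390 CPM against 178 and 198 CPM (1.02 ± 0.15, adjusted p = 4.53e-06), while Ezh2, the PRC2 methyltransferase, was at 108 and 115 CPM against 109 and 114 CPM (-0.01 ± 0.08). The PRC1 genes Cbx2 (1.06 ± 0.11, adjusted p = 5.29e-08) and Ring1 (-0.74 ± 0.13, adjusted p = 8.76e-05) moved in opposite directions.

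Among 23 imprinted genes 8 were higher and 5 lower, against 22.3% and 23.4% of all tested genes, and 6 and 3 of them lay outside the score. Igf2, the fetal growth factor, was at 24.4 and 23.7 CPM against 100 and 244 CPM (-2.84 ± 0.33, adjusted p = 1.34e-06), and the neighbouring noncoding H19 at 188 and 195 CPM against 409 and 988 CPM (-1.87 ± 0.31, adjusted p = 5.95e-05). The WT d8 libraries differed by more than 2-fold for both genes, and without WT d8 replicate 2 the differences were -2.06 and -1.09. Neither passed when only the 4 libraries were fitted. Snrpn was at 154 and 158 CPM against 63 and 59.3 CPM (1.35 ± 0.09, adjusted p = 2.35e-11). Of 22 glycolysis genes 5 were higher and 7 lower. Pdk1, which blocks pyruvate entry into mitochondria, was at 17.1 and 20.4 CPM against 90.1 and 102 CPM (-2.35 ± 0.10), and Aldoc, a glycolytic aldolase, at 2.71 and 2.82 CPM against 14 and 16.7 CPM (-2.48 ± 0.22). The glucose transporters went the other way, Slc2a3 at 1301 and 1296 CPM against 462 and 529 CPM (1.39 ± 0.09) and Slc2a1, outside the score, at 241 and 260 CPM against 135 and 149 CPM (0.82 ± 0.10, adjusted p = 5.47e-07). Ldha and Hk2 differed by 0.05 and 0.00.

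Markers of other lineages were mixed and mostly low. Their counts stand beside 22.3% higher and 23.4% lower over all tested genes, and several lie near those shares, the trophoblast list not among them. Of 16 trophoblast genes 8 were higher and 3 lower (median 0.80), and of the 4 outside the score 1 was higher and 1 lower (median -0.94). In this list 4 genes were above every WT stage and 0 below, against 4.44% and 4.13% of all tested genes. Cdx2 was at a mean of 1.73 CPM against 0.205 CPM (3.10 ± 0.43) and above every WT stage. Gata3, a trophoblast and epithelial factor, was at 14.6 and 15.8 CPM against 3.4 and 3.22 CPM (2.20 ± 0.15) and above every WT stage, Hand1 had 70 counts against 3, and Tfap2a, outside the score, was lower (-2.62 ± 0.28, adjusted p = 9.98e-08). Of 11 mesoderm and heart regulators 3 were higher and 2 lower. T (Brachyury), a primitive streak factor, was at 6.94 and 7.51 CPM against 1.83 and 1.64 CPM (2.07 ± 0.30), and Nkx2-5 had 32 counts against 0, at least 15.7-fold higher with a floor of 3 counts over the group. Of 15 endoderm genes 4 were higher and 3 lower, Gata4 being higher (2.28 ± 0.45) and Dab2 lower (-2.52 ± 0.25), while Sox17, a defining marker, had 0 counts in both groups. Of 11 striated muscle genes 3 were higher and 2 lower, and of 11 neural genes likewise 3 and 2, with Ncam1, an adhesion molecule also of fibroblasts, lower (-4.31 ± 0.21). Of 11 adipocyte, cartilage and bone genes 4 were higher and 2 lower, and Lpl, a lipase, was at 47.3 and 41.8 CPM against 10.7 and 11.9 CPM (1.97 ± 0.11, adjusted p = 3.35e-12). Of 10 endothelial markers 4 were higher and 2 lower, with a summed level of 101 CPM in both K36M d4 libraries and 87.5 to 90.6 CPM in WT d8, most of it Tek at 71.8 and 72.9 CPM against 74.6 and 77.2 CPM. Of 11 macrophage markers 0 were higher and 5 lower, with a sum of 5.87 to 6.05 CPM against 11 to 11.2 CPM, Lyz2 at 1 count against 153 and C1qc at 0 counts against 16. The macrophage count of 5 was 3 without WT d8 replicate 1, WT d8 replicate 2 or K36M d4 replicate 1, and 2 without K36M d4 replicate 2. The part of these markers in other results was not tested.

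K36M d4 was compared with each WT stage at once to count genes outside the WT course. In total 751 genes (4.44%) were above all 6 WT stages, d0, d2, d4, d6, d8 and iPSC, with an adjusted p below 0.05 in each contrast, and 699 (4.13%) were below all 6. Of the first, 514 lay outside the score (4.44% of its genes) and 237 in it (4.43%), and of the second 447 (3.86%) and 252 (4.71%). Without the WT iPSC stage in the comparison the counts were 1806 and 1827. The named genes farthest above were Abca12, Bcl2l15, Ces2e, Gpr132, Snx20 and Ms4a10, a membrane-spanning protein at 7.58 and 8.31 CPM against 0.539 and 0.591 CPM in WT d8. Those farthest below were Adamtsl3, Cxcl12, Pappa, Gas1, Fat4 and Dnm3os. Adamtsl3, a matrix protein, had 0 counts in K36M d4 and 858 in WT d8, at least 194-fold lower, and Pappa, a protease of IGF-binding proteins, was at 0.64 and 0.282 CPM against 14.4 and 18.9 CPM (-5.18 ± 0.37, or -5.87 without K36M d4 replicate 1). Of the 751 genes, 301 (40.1%) also lay above the whole range of the 12 WT libraries in K36M d2, 514 (68.4%) in K36M d6, 503 (67%) in K36M d8 and 101 (13.4%) in K36M iPSCs, against 6.8%, 13.2%, 10.5% and 6.94% of all tested genes. Of the 699 genes, 286 (40.9%) lay below that range in K36M d2, 494 (70.7%) in K36M d6, 438 (62.7%) in K36M d8 and 63 (9.01%) in K36M iPSCs, against 5.89%, 10.9%, 8.96% and 5.39%. Larger shares thus lay outside the WT range in the other K36M intermediates, d2 included, than in K36M iPSCs. The genes were picked by their K36M d4 values and the range holds the WT iPSC libraries, so this contrast is a description.

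Some score genes differed against the direction between WT d0 and WT iPSC. In this description 188 rising genes were at least 2-fold lower in K36M d4 than in WT d8 (6.23% of rising genes) and 92 falling genes at least 2-fold higher (3.95% of falling genes). WT levels moved the same way between d8 and iPSC by at least 2-fold in 47 of the 188 (25%) and in 25 of the 92 (27.2%), so part of these genes do not change steadily along the WT course. The median level of the 188 genes was 3.56 CPM in WT d8, 0.962 in K36M d4, 1.95 in K36M d6, 2.98 in K36M d8 and 5.22 in K36M iPSCs, against 5.29 in WT iPSCs. Besides the naive genes above, they included Igfbp2, an IGF-binding protein, at 3.25 and 4.41 CPM against 40.4 and 37.6 CPM (-3.34 ± 0.39), and Gna14, a G protein subunit, at 11.6 and 11 CPM against 84.2 and 84.1 CPM (-2.90 ± 0.15). Gna14 was at 142 CPM in WT d6 and 11.5 CPM in the iPSCs of both genotypes. The median of the 92 genes was 0.822 CPM in WT d8, 2.76 in K36M d4, 1.61 in K36M d8 and 0.667 in K36M iPSCs. Crabp1, a retinoic acid binding protein, was among them at 111 and 131 CPM against 29.8 and 22.9 CPM (2.21 ± 0.16). Its mean was already 767 CPM in K36M d0 against 198 CPM in WT d0. In MEFs without OKSM it was 364 CPM in K36M against 112 CPM in WT, so the higher level was not limited to reprogramming cells. Scel, a protein of the cornified envelope, was at 13 and 12.4 CPM against 1.45 and 1.91 CPM (2.89 ± 0.24) and above every WT stage. Along the course, the score gene with the most precise large rise named here was Inpp5d, a lipid phosphatase of blood and stem cells, at 202 and 197 CPM against 8.71 and 8.87 CPM (4.50 ± 0.10).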

How the data were processed

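The deposited table holds the authors' counts of reads per gene, not normalized, for 28 libraries, 2 in each of 14 groups, made with a stranded poly(A) kit per the labels. The submitters' processing notes name mm9, STAR 2.5.0, HTSeq 0.11.2 and edgeR. How strand, annotation and multi-mapping reads were treated is not given in the sources used, so paralogs, overlapping genes and antisense pairs are uncertain. The iPSC and noOKSM columns carry no stage in their names and were matched by library number, genotype and replicate. No column was left unused (0). The 37 mitochondrial genes are all at 0. Coordinates are on mm9 from GENCODE vM1, which held 37205 of 37620 gene IDs, and promoters come from RefSeq on GRCm38.p6.

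In R 4.3.3 with edgeR 4.0.16 and limma 3.58.1, TMM set the library sizes, filterByExpr (at least 10 counts, total 15) kept 16932 genes, and 1 robust quasi-likelihood fit held all 14 groups, with 14 residual degrees of freedom. The contrast was K36M d4 minus WT d8, two-sided, adjusted by Benjamini-Hochberg over all tested genes. The SE of a log2 difference is its size divided by the square root of F, and CPM values use the TMM-scaled library size. The course score sums the signed distance from WT d0 over the score genes on log2 CPM with a prior count of 2. On simulated counts for this contrast (16764 genes), 83 of 100 genes changed 2-fold and 96 of 100 changed 4-fold were recovered, and 3.24% of calls were false. The simulation held all other genes equal between the groups and drew no changed gene from those with the lowest levels. Far more genes differed in the real data, so these shares are not the error rates of the real calls.

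Members and the 36 gene lists (620 genes) were chosen with earlier results of these data known. The named genes are those with a mean of at least 5 CPM in the higher group, groups that do not overlap and a symbol that is not a predicted, pseudogene or ribosomal protein name. They are the 10 largest rises and 10 largest falls outside the score, the 6 and 6 largest in it, the 6 and 6 farthest beyond every WT stage, up to 4 members per list and a fixed set. Other list members and the genes that differ against their course were picked after their values were seen, and a few genes that the rule names are not reported here. Alternatives were DESeq2 1.42.0, other scalings, no filter, fewer libraries, a replicate block, each library left out and other score genes.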

Additional observations from a re-analysis of the deposited data

How the results depend on the processing

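Over the alternatives run, 3932 of the values of named genes kept their side of the threshold, 56 no longer passed and 8 newly passed. No value that passed changed sign (0), and the sign changed in 5 alternatives for H3f3b and 1 for Sox2, both close to 0. Counts for the lists stayed within 1.5 times in 1506 cases and moved further in 78. Replicates of K36M d4 and WT d8 with the same number did not deviate together (correlation of deviations -0.0108), so the numbers give no pairing. With a replicate block, 3798 genes were higher and 3994 lower, against 3773 and 3966. DESeq2 gave 3721 and 3821. Fitting only the 4 libraries compared gave 4416 and 4737, and leaving out both K36M d6 libraries, an alternative chosen after seeing the data, gave 4541 and 4522.

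Leaving out each library in turn gave 2891 to 3785 higher and 3119 to 4361 lower genes (1186 to 1377 and 1524 to 1788 by at least 2-fold), 6010 to 7808 in all. Outside the score it gave 3675 to 5024 (1856 to 2553 higher, 1818 to 2724 lower, 503 to 607 and 620 to 743 by at least 2-fold). It gave 576 to 728 genes above and 550 to 718 below every WT stage, and scores of 64.7 to 66.6 for K36M d4 and 48.5 to 50.2 for WT d8.

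The count outside the score depended on which genes the score holds. With 2-fold score genes 3201 differed (1446 lower, 395 of them by at least 2-fold). With any gene that differed between WT d0 and WT iPSC in the score, 1312 of the genes left differed (710 higher, 602 lower, 319 and 259 by at least 2-fold). Fewer genes were then left to count. How many were left is not given here, so these counts cannot be set as shares beside the 42.6% of the main score. Without WT iPSC, also chosen after seeing the data, 1806 genes lay above and 1827 below every WT stage, with fewer contrasts to pass. The K36M d4 score was 66.3 with RLE size factors, 65.2 with 2-fold score genes and 67.6 with a prior count of 0.5, and the WT d8 score 48.8 and 51.4 under the last 2. RLE and upper quartile scaling shifted the median log2 difference over all genes by 0.006 and 0.012 from its value under TMM. Counting error at this depth limits genes with few reads, such as Trp63, Dnmt3l and Hoxd11.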
